A study of Drosophila ananassae with 22 samples.

Results

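In *D. ananassae* embryos, 214 transcription start site clusters (TSCs) were selected for higher RNA levels at both ends of the series than in between. A TSC is a group of neighbouring start sites taken to mark a single promoter. The 214 were selected from 27105 TSCs. They reached at least 10 RPM, reads scaled to the read total of the time point, at their highest time point, and their mean RPM at 0-3 hr and at 19-22 hr was each at least 3 times their mean at 6-10 hr after egg laying. They made up 1.89% of the 11300 TSCs of at least 10 RPM. Those 3 windows chose the members, so all values in them are a description and were given no test.

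Eggs of *Drosophila* are loaded with messenger RNA made by the mother, and these maternally deposited transcripts drive the first nuclear divisions. They are then cleared while the genome of the embryo becomes active, a change known as the maternal-to-zygotic transition. Some maternally supplied genes are transcribed again later by the embryo itself, from the same promoter or from another, as organs form and cells differentiate. A start site that is used in the ovary and again in the late embryo gives a high RNA level at both ends of the series and a low level between them.

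The RNA came from whole embryos of the reference genome strain of the species, labelled In(3R)A, with no treatment named, and was collected in 22 windows of 1 hr, from 0-1 hr to 21-22 hr. RAMPAGE, which sequences capped and 5'-complete cDNA, was used to count reads at each TSC after digestion of RNA with a 5' monophosphate. Each time point was 1 sample, barcoded and prepared in a pool with the others, and nothing in the labels says that any was repeated, so differences between windows are set against the spread of neighbouring hours and not against biological replicates. The other 21 time points held 1193107 to 12409410 reads in TSCs (median 4420426), whereas the 7-8 hr time point held 579 reads, none of them in the 214 TSCs, and was left out. A single read was thus worth 0.0806 to 0.838 RPM, and a count of 0 allows up to 0.242 RPM at the deepest time point and 2.51 RPM at the shallowest one, for counting error only. In whole embryos, fewer cells of a type and less RNA per cell cannot be told apart. No gene names were available for the identifiers in the files and none of them was found in the reference gene table, so TSCs are given by FlyBase identifier and by position in the release 1.3 assembly, and no stage markers could be checked.

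The description of the selected TSCs as maternal and returning can apply to 171 of the 214 at most. The other 43 passed the rule because 0 is at least 3 times 0. Of these, 24 had no read at 0-3 hr, and 15 had no read at 19-22 hr. A further 4 had no read in any of the 3 windows. The 171 with reads in both outer windows stood at 169 distinct positions, since 2 pairs of rows gave the same peak to neighbouring gene identifiers, and all 214 rows covered 212 positions. Where the 43 matter for a count, values are given for the 214 and for the 171.

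**Figure D1:**
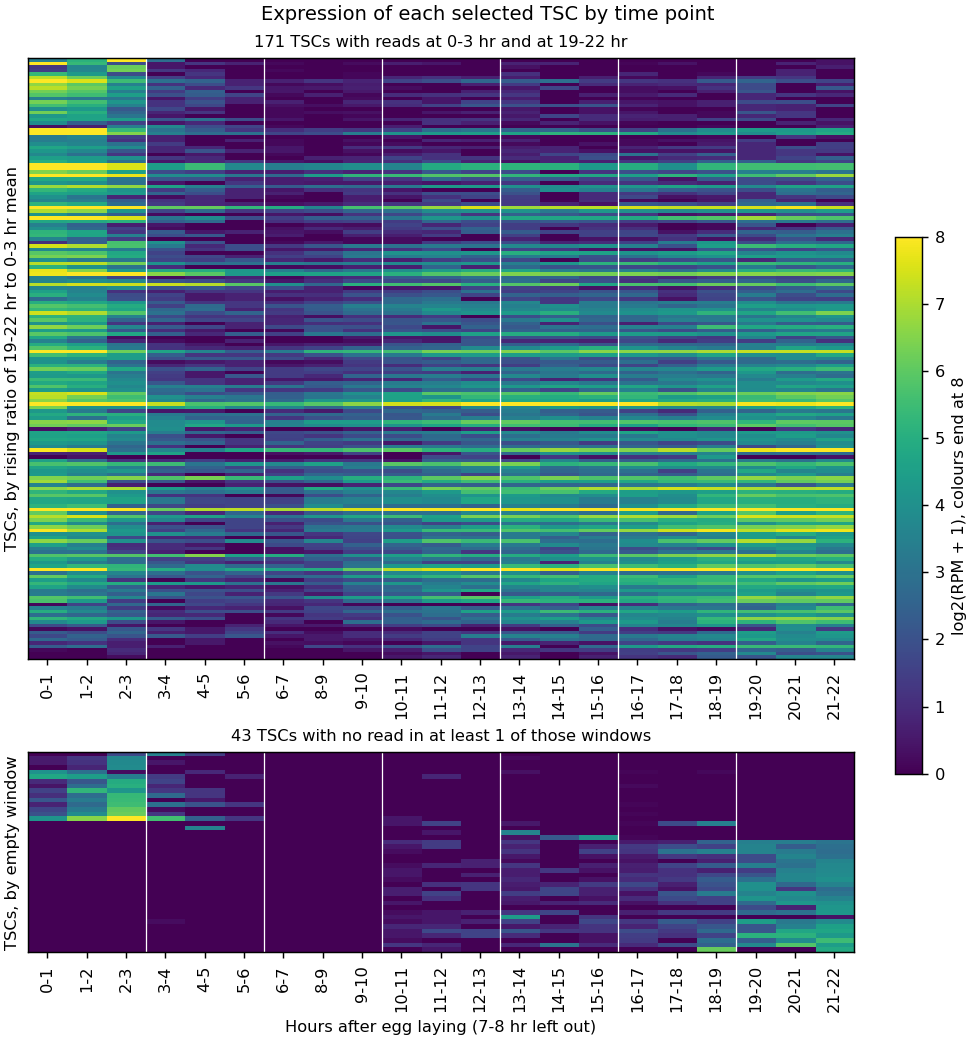
Colour shows log2(RPM + 1) of each selected TSC (rows) at each of the 21 time points (columns, in hours after egg laying), with white lines between windows. The 171 TSCs of the upper panel are brighter at both ends than at 6-10 hr, whereas each of the 43 of the lower panel is dark in at least 1 outer window.

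Summed over the 214 TSCs, expression was 13829 RPM at 0-1 hr, 11398 RPM at 1-2 hr and 1551 RPM at 3-4 hr. It was lowest at 6-7 hr, at 639 RPM, and then higher at each later time point except 14-15 hr, with 1932 RPM at 10-11 hr, 3477 RPM at 16-17 hr and 6610 RPM at 21-22 hr. The late sum thus remained below the sum at 0-1 hr. For the 171 TSCs with reads in both outer windows, the median was 27.3 RPM at 0-1 hr, 0.816 RPM at 6-7 hr and 13.3 RPM at 21-22 hr. The median of all 11300 TSCs of at least 10 RPM stayed between 8.24 and 16.5 RPM at all 21 time points.

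**Figure D2:**
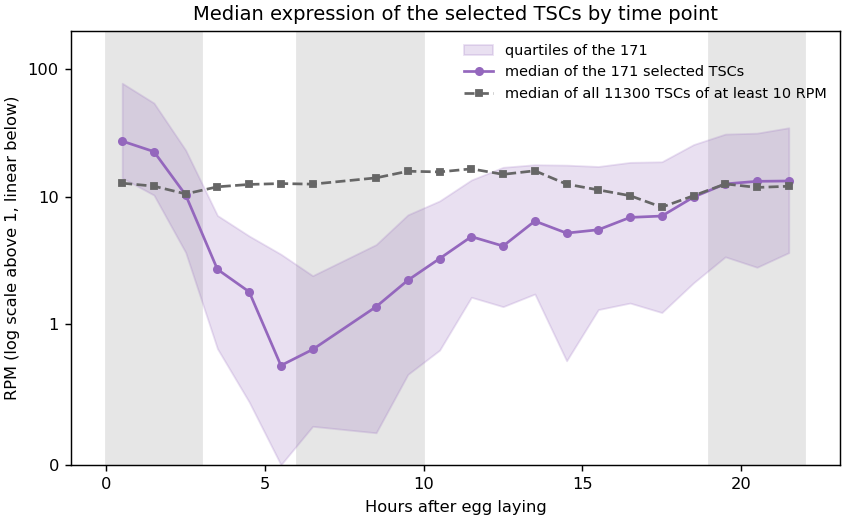
Median RPM by hour after egg laying for the 171 selected TSCs with reads in both outer windows (line, with quartiles shaded) and for all 11300 TSCs of at least 10 RPM (dashed). Grey bands mark the windows that chose the members. The median of the 171 is 27.3 RPM at 0-1 hr, under 1 RPM at 5-7 hr and 13.3 RPM at 21-22 hr, while the dashed line stays within 8.24 to 16.5 RPM.

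The disappearance of these transcripts was rapid. Of the 171, 141 had more RPM at 0-1 hr than at 2-3 hr. In the 164 of them with at least 30 reads at 0-3 hr, the level at 2-3 hr was a median of 43.1% of the TSC's own 0-3 hr mean. At 3-4 hr, the first hour outside the ratios of the rule, the median was 8.50%, with quartiles of 4.01% and 18.5%. At 6-7 hr it was 3.84%. A minority had another course within the first window, since 12 of the 171 had over 3 times more RPM at 2-3 hr than at 0-1 hr.

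Expression came back gradually. In the 119 TSCs with at least 30 reads at 19-22 hr, the median was 7.75% of the TSC's own 19-22 hr mean at 6-7 hr and 19.6% at 9-10 hr. Outside the ratios of the rule it was 26.1% at 10-11 hr, 51.6% at 13-14 hr, 49.0% at 16-17 hr and 70.8% at 18-19 hr. A level of 50% of the late mean was first met at 10-13 hr in 60 of the 119, at 13-16 hr in 26, at 16-19 hr in 24 and not before 19 hr in 9. All these levels are on the deposited scaling. TMM factors, which equalize the bulk of TSCs between time points, were 0.653, 0.583 and 0.679 at 16-17, 17-18 and 18-19 hr. They were 0.895, 0.804 and 0.806 at 19-20, 20-21 and 21-22 hr. Levels at 16-19 hr would be higher relative to the late mean with these factors, and the course was not computed with them.

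The 0-3 hr level and the late level of a TSC were often unequal. Among the 171, the median of the means was 21.8 RPM at 0-3 hr, 1.61 RPM at 6-10 hr and 13.8 RPM at 19-22 hr. The 0-3 hr mean was the larger in 116 and the 19-22 hr mean in 55, and both lay within 2-fold of each other in 70. The median ratio of the late mean to the early mean was 0.558, with quartiles of 0.210 and 1.31. Both outer means were at least 10 RPM in 88 TSCs and at least 100 RPM in 9. The highest time point was in 0-3 hr for 117, in 19-22 hr for 40, in 10-19 hr for 11 and in 3-6 hr for 3. Low depth limits the late end: 28 of the 171 had under 10 reads at 19-22 hr, whereas 4 had under 10 reads at 0-3 hr, and 7 had no read at 6-10 hr.

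The member with the most reads, 32706 over the 21 time points, was FBgn0089597_02, a TSC of 344 bp on scaffold 13266 (1215782 to 1216125, plus strand). Its expression was 527, 662 and 244 RPM at 0-1, 1-2 and 2-3 hr. At 6-7, 8-9 and 9-10 hr it was 127, 142 and 192 RPM. At 19-20, 20-21 and 21-22 hr it was 634, 645 and 613 RPM. This TSC was never silent, and its lowest value was 71.5 RPM at 3-4 hr, just after the early window. Its late values lay close together and within the range of the 3 early ones.

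FBgn0102147_02 had 27682 reads and the largest early mean of the 171, and is 102 bp wide (scaffold 13337, 3943017 to 3943118, plus strand). Its 3 early values were 1035, 1191 and 616 RPM, its 3 middle values 29.4, 11.1 and 49.1 RPM, and its 3 late values 177, 231 and 161 RPM. All late values lay above the middle ones and below the early ones, so this promoter came back to a fraction of its early level, with a ratio of late to early means of 0.200.

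FBgn0094070_01 and FBgn0094071_01 are neighbours on the minus strand of scaffold 13340, 4841 bp apart (7584336 to 7584446 and 7579401 to 7579494), and are both among the 10 members with the most reads. FBgn0094070_01 had 585, 321 and 39.5 RPM in the 3 early hours, 24.4, 29.6 and 69.2 RPM in the middle hours, and 261, 598 and 733 RPM in the late hours. FBgn0094071_01 had 688, 188 and 6.65 RPM early, 40.0, 39.6 and 53.1 RPM in the middle, and 218, 261 and 334 RPM late. In both, the 2-3 hr value was already as low as a middle value, so their early and middle hours overlap and the early mean rests on the first hours. The files hold them as separate genes, and how reads were divided between the neighbouring genes was not tested.

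FBgn0089592_01 (scaffold 13266, 1025049 to 1025117, plus strand) had the largest of the smaller ratios, late or early, among the members with at least 30 reads at 6-10 hr. It had 464, 392 and 189 RPM early, 1.77, 4.30 and 4.48 RPM in the middle, and 111, 68.0 and 53.6 RPM late. The values of the 3 windows did not overlap, with an early mean 99.1 times and a late mean 22.1 times the middle mean. FBgn0088746_04 (scaffold 13266, 10015013 to 10015364, minus strand) followed, with 245, 131 and 18.4 RPM early, 0.816, 8.37 and 8.87 RPM in the middle, and 146, 197 and 221 RPM late.

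**Figure D3:**
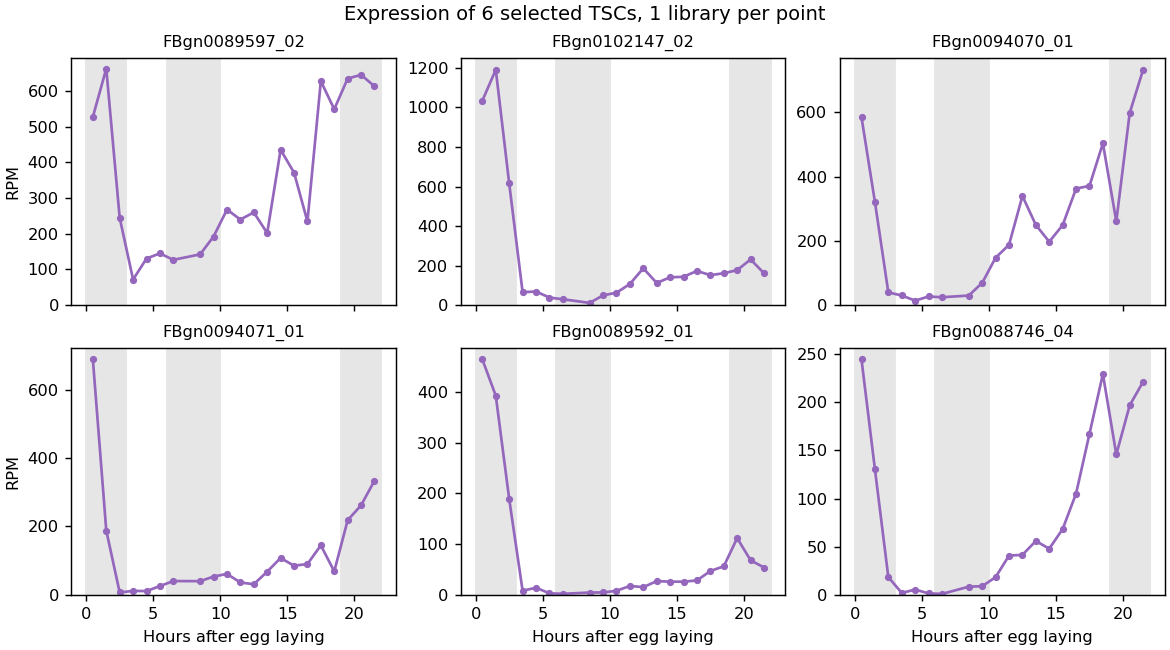
RPM against hours after egg laying for 6 selected TSCs, 1 library per point, with grey bands at the windows that chose them. FBgn0102147_02 reaches 1191 RPM early and 231 RPM late, whereas FBgn0094070_01 and FBgn0088746_04 reach 733 and 221 RPM at 21-22 hr, with late means above the early ones.

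Among the TSCs not attributed to a gene, RAMPAGEpeak_019393 had the most reads (10371). It lies on scaffold 13335 (267373 to 267417, minus strand), and had 222, 311 and 299 RPM early, 21.8, 24.0 and 24.3 RPM in the middle and 93.9, 84.6 and 90.7 RPM late. Values were close within each window, and no 2 windows overlapped. RAMPAGEpeak_003342, on scaffold 13340 (21886710 to 21886871, plus strand), had 102, 73.7 and 11.7 RPM early, 2.31, 3.17 and 2.83 RPM in the middle and 26.0, 29.1 and 31.9 RPM late.

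In 9 genes, 2 TSCs were members, in some of them beside further TSCs that were not. FBgn0088746_03 lies 259 bp from FBgn0088746_04 on the same strand, and had window means of 11.8, 1.50 and 22.1 RPM against 131, 6.02 and 188 RPM. FBgn0100065_01 and FBgn0100065_02, 2887 bp apart, had 62.0, 5.49 and 88.7 RPM, and 13.7, 1.81 and 26.3 RPM. In FBgn0090782 the return was small: FBgn0090782_01 had means of 195, 0.923 and 3.30 RPM, the last of them from 17 reads. In 7 of the 9 genes the same member was the stronger in all 3 windows. In the other two, FBgn0091543 and FBgn0096383, the order changed after 0-3 hr. FBgn0096383_01 had means of 10.2, 1.09 and 9.80 RPM, and FBgn0096383_05 had 8.24, 1.61 and 12.4 RPM. FBgn0091543_03 had 23.3, 0.258 and 1.14 RPM, and FBgn0091543_02 had 10.7, 0.561 and 3.02 RPM, the late means of both from under 20 reads. Both TSCs of a gene share its RNA and its libraries, and are not independent.

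The cut-off was not a gap in the data. Just inside it, FBgn0094979_02 had an early ratio of 3.04 and RAMPAGEpeak_022514, just outside, had one of 2.9997. FBgn0098424_01, inside, had means of 18.3, 5.90 and 18.4 RPM, and FBgn0095840_05, outside, had 17.6, 5.35 and 16.0 RPM.

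Among the 43 TSCs with an empty window, the 24 without a read at 0-3 hr were late TSCs, and 22 of them had their highest value at 19-22 hr. Their highest values ranged from 10.1 to 70.3 RPM. Of the 15 without a read at 19-22 hr, 11 were highest at 2-3 hr. The strongest, FBgn0093775_01, had 16.7, 92.6 and 628 RPM at 0-1, 1-2 and 2-3 hr, 47.3 RPM at 3-4 hr, and no read at any of the time points from 11 hr. Its level was higher at each successive hour from 0 to 3 hr, whereas 141 of the 171 were lower at 2-3 hr than at 0-1 hr.

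The time points of 10-19 hr entered neither ratio of the rule. They were used to ask whether the selected TSCs rose before the last window. The minimum of 10 RPM was taken over these hours too, and 11 of the 171 had their highest value in them. The slope of log2(RPM + 1) over these 9 time points was tested by limma over all 11300 TSCs, with Benjamini-Hochberg adjusted p under 0.05 as the threshold. Of the 214, 51 rose (23.8%) and 4 fell, against 1208 rising and 4649 falling TSCs in all, which are 10.7% and 41.1%. The 45 rising TSCs among the 171 made up 26.3%. The median slope was 0.06 per hr for the 171 and -0.13 per hr for all TSCs, and 163 of the 171 lay above the latter. These hours run from a window in which the members were chosen to be low to one in which they were chosen to be high, so an upward slope is favoured by the choice.

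Slopes of rising members ranged from 0.13 to 0.45 per hr, with a median of 0.24. FBgn0088746_04 rose by 0.39 per hr (SE 0.043), from 18.3 RPM at 10-11 hr to 229 RPM at 18-19 hr. RAMPAGEpeak_003342 rose by 0.44 per hr (SE 0.085), with 44.2 RPM at 18-19 hr against 2.43 RPM at 10-11 hr. FBgn0089592_01 rose by 0.28 per hr (SE 0.044) and FBgn0094070_01 by 0.17 per hr (SE 0.044, adjusted p = 0.011 by limma). The call of FBgn0094070_01 was lost without 10-11 hr (adjusted p = 0.0502), without 18-19 hr (adjusted p = 0.0509) and for 16-19 hr against 10-13 hr (adjusted p = 0.0597), all by limma. FBgn0089597_02 rose by 0.15 per hr (SE 0.055, adjusted p = 0.045 by limma), a call that was lost in 7 of the 9 fits with 1 time point left out (adjusted p from 0.015 to 0.14). FBgn0090756_01 had a slope of -0.05 per hr (SE 0.079, adjusted p = 0.61 by limma), with its highest value of 456 RPM at 15-16 hr and 128 RPM at 18-19 hr.

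The 4 members that fell over 10-19 hr were FBgn0095043_01, FBgn0088661_01, FBgn0088892_01 and FBgn0096082_02, named here after their values were seen. FBgn0095043_01, on scaffold 13340 (8349318 to 8349545, plus strand), had 640, 555 and 215 RPM early, 5.71, 20.6 and 36.7 RPM at 6-10 hr, and between 22.0 and 57.1 RPM over 10-19 hr, followed by 44.4, 65.2 and 109 RPM late. Its slope was -0.14 per hr (SE 0.045, adjusted p = 0.029 by limma). All 4 were also lower at 3-6 hr than at 10-13 hr, and each had its highest value of 10-19 hr at 12-13 hr. The other 3 had 166 to 308 reads in all and late means of 1.32 to 2.23 RPM. With TMM factors the slope of FBgn0095043_01 was -0.0070 per hr (adjusted p = 0.93 by limma), with edgeR -0.0026 per hr (adjusted p = 0.98) and with DESeq2 0.0022 per hr (adjusted p = 0.98), so its fall was present on the deposited scaling and not on these.

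Scaling bore on these counts. With TMM factors, which equalize the bulk of TSCs between time points, the median slope of all TSCs moved from -0.13 to -0.02 per hr, and limma called 92 of the 214 rising and 1 falling, against 1958 rising and 1605 falling TSCs in all. With edgeR on the recovered reads 104 rose and 0 fell, and with DESeq2 111 rose and 0 fell (2 and 2 below an unadjusted p of 0.05). Among all TSCs, 2064 rose and 1828 fell with edgeR, and 2367 rose and 2084 fell with DESeq2. Relative to the median of all TSCs, the median of the 171 was 0.19 per hr higher with either scaling. Without the 10-11 hr time point, and also without the 18-19 hr one, 33 members rose in place of 51. Among all TSCs, 914 and 967 rose in these fits, in place of 1208.

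**Figure D4:**
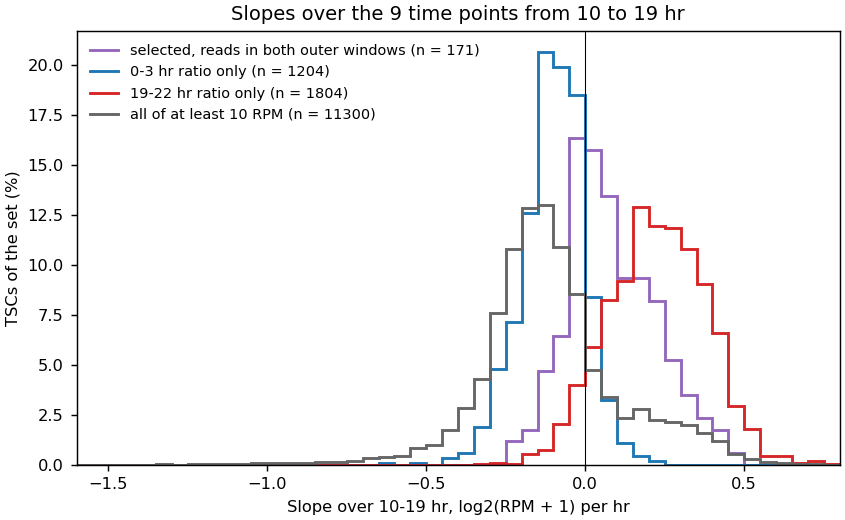
Share of TSCs (%) by slope over the 9 time points of 10-19 hr, in log2(RPM + 1) per hr, for the 171 selected TSCs, for TSCs with the early ratio alone, for those with the late ratio alone and for all TSCs of at least 10 RPM. The 171 centre on 0.06 per hr, between the early-ratio set at -0.10 and the late-ratio set at 0.23.

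The time points of 3-6 hr and 10-13 hr border the low window on either side and entered neither ratio of the rule. The minimum of 10 RPM was taken over these hours too, and 3 of the 171 had their highest value in 3-6 hr. At 3-6 hr, 67 of the 214 were lower than at 10-13 hr and 10 were higher, by the same kind of limma test. FBgn0089137_02, among the 10 that were higher, reached 10 RPM only at 3-4 hr (12.7 RPM), so such a call is favoured by the choice. The lower share (31.3%) was near that of all TSCs, of which 31.2% were lower, while 18.4% of all TSCs and 4.67% of the members were higher. Among the 171, 65 were lower and 8 were higher, with a median difference of -0.81 on the log2(RPM + 1) scale against -0.16 for all TSCs. The differences of the members that were lower ranged from -0.98 to -3.99. FBgn0094070_01 had 29.8, 13.8 and 26.7 RPM at 3-6 hr and 148, 188 and 340 RPM at 10-13 hr, a difference of -3.19 (SE 0.41). FBgn0088746_04 had 1.85, 5.34 and 1.41 RPM against 18.3, 40.7 and 41.4 RPM, a difference of -3.21 (SE 0.52). In both TSCs the windows did not overlap. Of the 214, 19 both rose over 10-19 hr and were lower at 3-6 hr, and of the 171, 74 passed neither test. The shares of all TSCs that passed both tests or neither were not counted, so these numbers have no background to be read against.

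RAMPAGEpeak_019393, in contrast, had 95.2, 60.0 and 19.0 RPM at 3-6 hr and 32.9, 56.0 and 71.3 RPM at 10-13 hr, a difference of -0.08 (SE 0.57, adjusted p = 0.91 by limma). The hours of both windows overlap, and its level at 3-4 hr was still 34.3% of its 0-3 hr mean.

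The sets nearest to the selected TSCs at the same minimum of 10 RPM are 1204 TSCs that met the early ratio alone, and 1804 that met the late ratio alone. They were compared on measures outside the ratios of the rule, as counts and medians with no test over regions. Over 10-19 hr, 0.249% of the early-ratio set and 58.4% of the late-ratio set rose, and 26.3% of the 171 did. At 3-6 hr, 5.98% and 80.9% of these sets were lower than at 10-13 hr, and 65 of the 171 were. The selected TSCs thus lay between both sets. The sets were chosen by the windows next to these hours, so this order is favoured by the choice.

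The width of a TSC is the stretch of bases over which transcription starts. The median width was 91 bp for the 171, 94 bp for the early-ratio set, 47 bp for the late-ratio set and 97 bp for all TSCs of at least 10 RPM. TSCs under 20 bp made up 8.19% of the 171, 4.82% of the early-ratio set and 19.2% of the late-ratio set. The 43 with an empty window had a median width of 15 bp, and 72.1% of them were under 20 bp, so the 214 together had a median of 82.5 bp. Depth moved with width: the 43 had a median of 133 reads in all, and the 171 had 918. In 4 equal classes of total reads, from the lowest to the highest, the median width was 28, 104, 101 and 108 bp for the 103, 52, 40 and 19 selected TSCs, and 62, 85, 99 and 128 bp for the others. The selected TSCs were thus narrower in the lowest and the highest class and wider in the other two. Of the 103 in the lowest class, 62 had reads in both outer windows, and the rest were among the narrow 43. Widths by class were not taken for the 171 alone. The plus strand held 102 of the 214 and the minus strand the other 112.

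A promoter may lie back to back with another one on the opposite strand. A divergent partner was counted where a TSC of at least 10 RPM on the other strand lay within 500 bp upstream. Such a partner was present for 12 of the 214 (5.61%) and 10 of the 171 (5.85%). The share was 4.21% in the late-ratio set, 23.8% in the early-ratio set and 20.8% among all TSCs of at least 10 RPM. It was also below that of all TSCs within each of 4 equal classes of total reads, with 3.88% against 10.4% in the lowest class and 10.0% against 25.0% in the next to highest one, and none of the 19 selected TSCs of the highest class had one. None of the 10 partners was itself selected. At 19-22 hr no partner reached 3 times its 6-10 hr mean, and at 0-3 hr 2 of them did. FBgn0100065_01, for example, had a partner 346 bp away, FBgn0100148_01, with 25.3 RPM at 0-3 hr, 16.4 RPM at 6-10 hr and 8.45 RPM at 19-22 hr.

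The files attributed 189 of the 214 TSCs (88.3%) to annotated genes, 180 in number, and 92.4% of the 171. The share was 87.8% for all TSCs of at least 10 RPM. More than 1 TSC was attributed to 93 of the 180 genes (51.7%), and to 45.5% of the 8012 genes with a TSC of at least 10 RPM. A gene with more TSCs has more chances to hold a member, so a higher share is favoured by the choice. Members were spread over 19 scaffolds. The largest number, 48, lay on scaffold 13266 and made up 2.23% of its TSCs of at least 10 RPM, against 1.89% over all scaffolds. Shares differed between scaffolds, with 13 of 354 (3.67%) on scaffold 12911 and 2 of 277 (0.722%) on scaffold 13417. Of the 171, 16 pairs of neighbours lay within 10000 bp, of which 9 were in the same gene and 2 were a single peak entered under separate genes.

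The attributed TSCs among the 171 belonged to 149 genes, of which 82 had further, unselected TSCs. In 43 of these the further TSCs summed to at least 10 RPM in a window. Only in the 43 was it asked whether the whole gene or the selected promoter alone was low in the middle of embryogenesis. The selected TSC held a median of 55.8% of the gene's RPM at 0-3 hr, 11.6% at 6-10 hr and 44.8% at 19-22 hr. It held the larger share in 24 genes at 0-3 hr, in 7 at 6-10 hr and in 19 at 19-22 hr. In 10 genes it led at both ends and not in the middle. The low share at 6-10 hr follows in part from the rule, since the rule set a low numerator. The further TSCs are bound by the rule too, since they are those that failed it and their sum had to reach 10 RPM in 1 of the windows. As a description, their sum was higher at 6-10 hr than at 0-3 hr in 22 of the 43 genes, and was highest at 6-10 hr among the 3 windows in 12. Summed over all its TSCs, the gene itself still had both ratios of at least 3 in 16 of the 43, and was highest at 6-10 hr in 9. These counts do not cover the other genes of the 149. They were not taken for all genes with more than 1 TSC, so they have no background to be read against.

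In FBgn0100336 the selected TSC FBgn0100336_03 had 30.5, 25.7 and 17.9 RPM at 0-3 hr, 1.09, 2.04 and 2.83 RPM at 6-10 hr and 14.2, 7.63 and 8.74 RPM at 19-22 hr. The strongest further TSC, FBgn0100336_01, lies 21765 bp upstream, and had 20.7, 28.8 and 49.4 RPM in the same early hours, 631, 756 and 734 RPM in the middle and 200, 189 and 209 RPM late. The selected promoter was the larger of the pair at 0-1 hr, and the upstream one exceeded it from 1-2 hr on.

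In FBgn0097201 the selected TSC FBgn0097201_05 had 33.8, 33.7 and 7.26 RPM early, and the further TSC FBgn0097201_07 had 6.37, 8.62 and 11.5 RPM. At 6-7 hr their levels were 0.408 and 139 RPM. At 21-22 hr they were 19.9 and 128 RPM. Of this pair, the selected promoter was the larger at 0-2 hr, and the other one at 2-3 hr and at every later time point. The gene has 7 further TSCs, which summed to 98.3 RPM at 0-3 hr, so the selected TSC held 20.2% of the gene's RPM in that window and was a minor promoter there too. FBgn0097201_07 was taken for its level at 6-10 hr.

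FBgn0100394 and FBgn0089137, which have the other strong further TSCs, show a weak member beside a strong promoter. FBgn0100394_05 had window means of 11.4, 3.22 and 18.1 RPM, whereas FBgn0100394_01 had 583, 602 and 152 RPM. FBgn0089137_02 had its highest value of 12.7 RPM at 3-4 hr and a 19-22 hr mean of 0.201 RPM, and FBgn0089137_01 had 188, 562 and 455 RPM. These 4 genes were chosen for the RPM of the further TSCs at 6-10 hr. The strongest further TSC of the 43 genes lay a median of 4653 bp from the member.

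**Figure D5:**
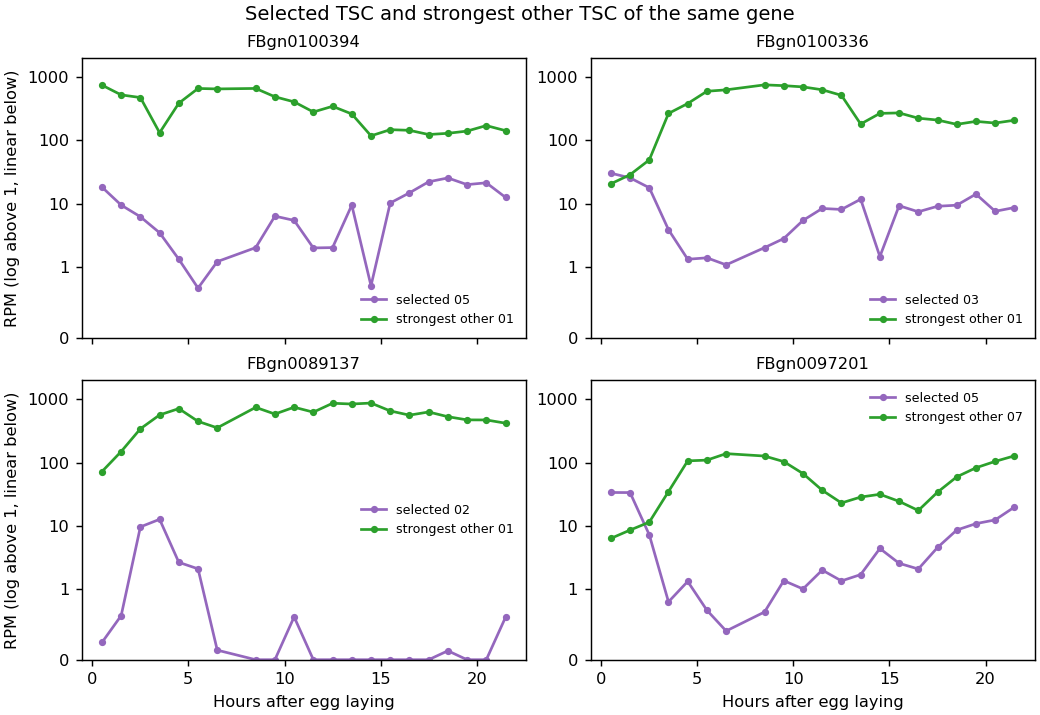
RPM (log scale above 1, linear below) against hours after egg laying for the selected TSC and the strongest other TSC of the same gene at 6-10 hr, in 4 genes. The other TSC is above the selected one through the middle hours in all 4, and in FBgn0100336 and FBgn0097201 both cross within the first 3 hours.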

How the data were processed

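RAMPAGE was run on whole *D. ananassae* embryos of 22 time points, with 1 sample each. Per the methods of the authors, reads were mapped with STAR, TSCs were called on the pooled series with a dedicated peak caller and attributed to annotated genes. Values of the deposited tables per TSC and per gene are in RPM, which the authors obtained by dividing by the read total of the column. The deposited peak list gives positions, strands and a whole-number score whose meaning is not given in the sources used here, and the score entered no result. A deposited table of smoothed Z-scores was not used here. No per-sample column was left unmapped.

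RPM values were divided by the value of 1 read in each column. Within 0.1 read, 100% of values came out whole, so reads are known. At 1193107 reads or more per time point, depth limits TSCs of a few RPM. The 214 members were found by the rule given above. The slope over 10-19 hr and the difference between 3-6 hr and 10-13 hr were tested two-sided by limma 3.58.1 on log2(RPM + 1), with a pseudocount of 1 RPM, over all TSCs of at least 10 RPM. On this scale a fold change of a low TSC is understated. Benjamini-Hochberg adjustment was used at 0.05, over all TSCs. The time points of a window are successive hours, not replicates of a culture or cage, so their spread includes change with time. Alternatives were edgeR 4.0.16 and DESeq2 1.42.0 on recovered reads, TMM factors, other pseudocounts and filters, 16-19 hr against 10-13 hr, and each time point left out. The tests were also run on simulated data, and the outcome of that run is not given here.

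Members and lists were chosen with earlier results of these data known. TSCs named are the 10 with the most reads, the 10 with the largest smaller ratio, the 3 on either side of the threshold, the 3 unattributed ones with the most reads and those of genes with more than 1 member, given here in part. The gene lists, stage markers and promoter motifs that had been planned were not applied, since the files and the reference table do not pair these identifiers with names, and no genome sequence or promoter table was used. Divergent partners, the sets with a single ratio and the counts without empty windows were added after the data were seen. The analyses used Python 3.11.15 with pandas 2.3.3, and R 4.3.3.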

Additional observations from a re-analysis of the deposited data

How the results depend on the processing

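The number of selected TSCs moved with the rule. It was 126 with a minimum of 25 RPM, 1499 with no minimum, 372 with a ratio of 2 and 134 with a ratio of 5, and 116 of the 214 had at least 30 reads in both outer windows. With TMM factors 254 TSCs were selected, of which 194 were among the 214, and with 7-8 hr in the middle mean 310. Leaving out 1 time point of the rule gave 203 to 363, with the highest number without 9-10 hr, when 209 of the 214 were kept. The share attributed to genes was 95.2% at 25 RPM and 92.4% among the 171 with reads in both outer windows, while TSC width had a median of 94.5 bp at 25 RPM, 58 bp at a ratio of 5 and 91 bp among the 171. With partners within 1000 bp, 11.2% of members and 26.2% of all TSCs had a divergent partner, and with no minimum for the partner 13.6% and 29.4%.

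The number rising over 10-19 hr was 92 with TMM factors, 104 with edgeR and 111 with DESeq2, and 33 to 61 with 1 time point left out. Among all TSCs, 1958 rose and 1605 fell with TMM factors, 2064 and 1828 with edgeR and 2367 and 2084 with DESeq2. With 1 time point left out, 914 to 1240 of all 11300 TSCs rose. The other alternatives gave 34 to 56 rising members. At a minimum of 25 RPM the 34 were of 126 members tested, with 853 of 7920 TSCs rising in all. With no filter the 34 were of 214 members, with 1406 of 27105 TSCs rising in all. The slope of FBgn0095043_01 was -0.14 per hr in limma on the deposited RPM, -0.0070 per hr in limma with TMM factors alone and 0.0022 per hr with DESeq2, so the change of scaling moved it. The number lower at 3-6 hr than at 10-13 hr was 47 to 69 under all alternatives run, against 67, and 50 to 64 with 1 time point left out. The 47 were of the 126 members of at least 25 RPM, with 2401 of 7920 TSCs lower in all. Among all 11300 TSCs, 3652 were lower with TMM factors, and 2918 to 3421 with 1 time point left out. Those higher at 3-6 hr numbered 2 with no filter and 3 to 16 with 1 time point left out. Among all TSCs they numbered 2146 of 27105, and 1520 to 1818 of 11300. Of the calls for named TSCs, 33 of 238 alternative fits of the slope and 42 of 257 of the difference no longer passed the threshold. No paired analysis was possible because the labels give no replicate numbers. In 28 of the 171 the return rests on under 10 reads at 19-22 hr, so its size is uncertain at this depth.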
